A study of Mus musculus with 72 samples.

Results

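Amino acid transporters of the plasma membrane and the lysosome were followed in mouse early secondary ovarian follicles given follicle-stimulating hormone (FSH) in culture. The set held every gene whose symbol began with Slc1a, Slc3a, Slc7a, Slc36a, Slc38a or Slc43a followed by a number, which gave 42 genes of the 56691 listed. By family there were 7 Slc1, 2 Slc3, 15 Slc7, 4 Slc36, 11 Slc38 and 3 Slc43 genes. Of these 42 genes, 31 had enough counts to be tested and 11 did not.

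The study asked how the glycosylation of FSH shapes the transcriptome of the follicle, which is an oocyte wrapped in layers of granulosa cells. FSH21 is the hypoglycosylated form of the hormone and FSH24 the fully glycosylated form. Follicles received FSH21 at 1 ng/ml, FSH24 at 1 ng/ml, FSH21 at 10 ng/ml, FSH24 at 10 ng/ml or no FSH, all for 24 h, and each treated group had 3 RNA sequencing libraries. All groups were kept in α-MEM with GlutaMAX, a stabilised source of glutamine, and with albumin, fetuin and an insulin-transferrin-selenium supplement, so every group, untreated follicles too, had insulin. The libraries numbered 1, 5 and 6 were the 1 ng/ml groups and 3 untreated libraries, and those numbered 2, 3 and 4 were the 10 ng/ml groups and the other 3 untreated libraries. Each FSH group was compared with the untreated libraries of its own numbers, so dose and number set cannot be told apart. Strain and age of the mice and the number of follicles per library are unstated in the sources used here. Which animals or cultures the replicates came from is not said in the labels, so a p-value speaks only of how far these libraries scatter, and some of that scatter may be technical.

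Cells take up amino acids through carriers that differ in substrate, in the ions that drive them and in whether they exchange one amino acid for another. The Slc7 light chains such as LAT1 (Slc7a5) and LAT2 (Slc7a8) reach the cell surface bound to a heavy chain, mostly 4F2hc (Slc3a2), and swap large neutral amino acids such as leucine across the membrane, while the sodium-coupled Slc38 carriers load the cell with glutamine and alanine that those exchangers can use. In the mouse follicle, granulosa cells pass amino acids to the oocyte through gap junctions, and Slc38a3 in the granulosa cells that surround the oocyte is known to depend on signals from the oocyte.

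Total counts lay between 17.5 M and 22.5 M per library, with a median of 21.4 M. Oocyte and granulosa transcripts were abundant in all libraries. The summed level of 15 oocyte genes was 5160 to 6600 CPM (counts scaled to a common library size, with totals adjusted by TMM), and that of 13 granulosa genes 7020 to 10400 CPM. Markers of other cells were also present, at 2610 to 4370 CPM for 11 stroma and smooth muscle genes, 1190 to 2170 CPM for 8 theca and steroidogenic genes and 71.7 to 107 CPM for 9 endothelial genes. The 9 immune cell genes summed to 5.23 CPM at most and the 7 red blood cell genes to 0.825 CPM at most, with Hbb-bt, a beta globin, at 0 in every library.

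In untreated follicles the heavy chain Slc3a2, its partners Slc7a8 and Slc7a5 and the Slc38 carriers Slc38a2 and Slc38a10 led the set. Levels were compared between genes as CPM per kb of annotated exon, over the 6 untreated libraries. Slc3a2, the 4F2hc heavy chain, averaged 47.2 ± 4.31 CPM per kb and Slc38a2, the sodium-coupled neutral amino acid transporter SNAT2, 44.8 ± 3.00 CPM per kb (SD, n = 6 each). The light chains Slc7a8 and Slc7a5 stood at 37.0 ± 2.58 and 35.3 ± 3.80 CPM per kb, and Slc38a10, another neutral amino acid carrier of the SNAT family, at 29.6 ± 1.96 CPM per kb (SD, n = 6 each). The ranges of Slc3a2 and Slc38a2 overlapped, as did those of Slc7a8 and Slc7a5 and those of Slc7a5 and Slc38a10, while every library of Slc38a2 lay above every library of Slc7a8.

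After Slc38a10 came a gap in the level per kb. Slc7a6, the y+LAT2 light chain that exchanges cationic for neutral amino acids, was next at 11.6 ± 0.772 CPM per kb, with no overlap with Slc38a10 or with Slc38a7 below it (SD, n = 6). Slc38a7, known as a lysosomal glutamine exporter, was at 9.39 ± 0.447 CPM per kb and Slc7a1, the cationic amino acid transporter CAT1, at 9.20 ± 0.901 CPM per kb. From Slc38a7 down to Slc36a4, the carrier PAT4 at 3.39 ± 0.114 CPM per kb, each gene's range met that of the next. Slc43a2, the facilitative carrier LAT4 for branched-chain amino acids, phenylalanine and methionine, was low at 1.07 ± 0.143 CPM per kb. The lowest tested genes were Slc3a1, the rBAT heavy chain, at 0.229 ± 0.146 CPM per kb and Slc1a1, the glutamate transporter EAAT3, at 0.0971 ± 0.0298 CPM per kb (SD, n = 6). Summed over each family, levels came to 113 CPM per kb for Slc38, 106 for Slc7, 47.4 for Slc3, 11.2 for Slc1, 8.94 for Slc43 and 8.13 for Slc36.

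**Figure D1:**
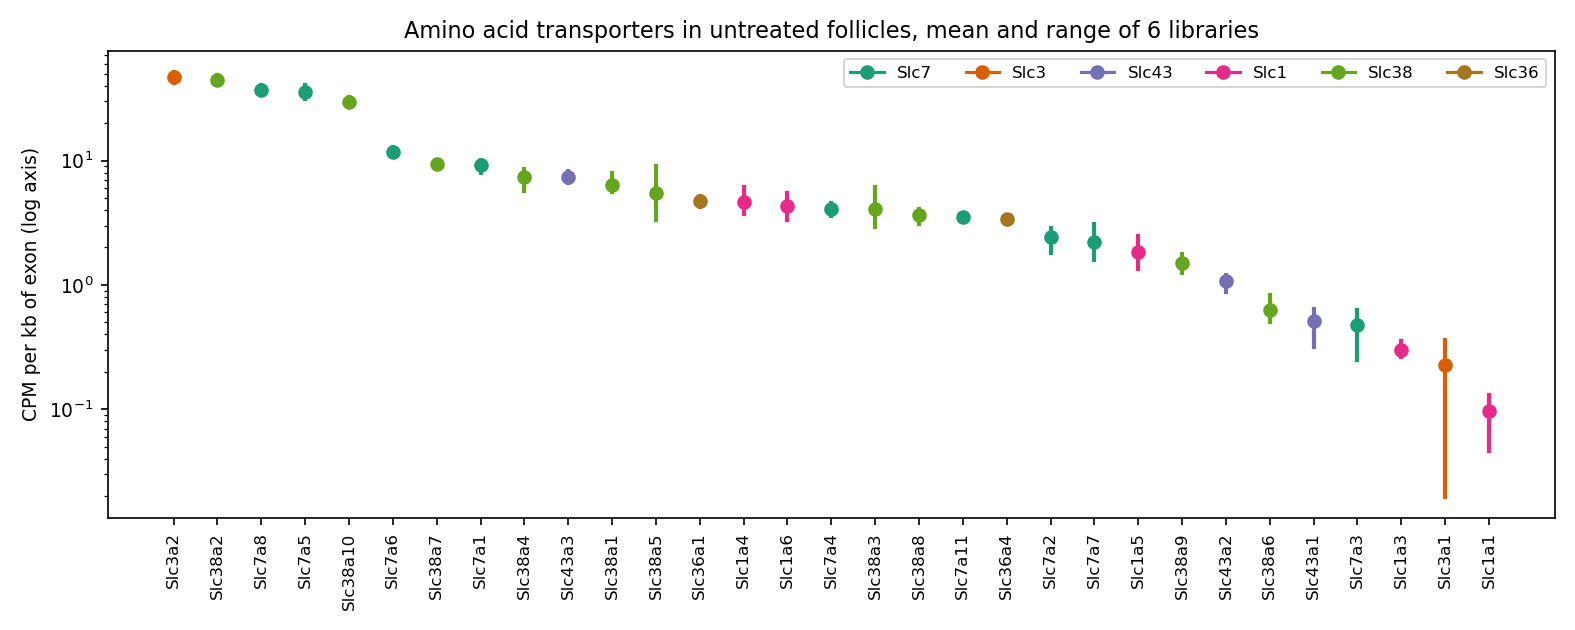
Level of each of the 31 tested transporters in untreated follicles, in CPM per kb of exon on a log axis, sorted from high to low, with points for means and bars for the range of 6 libraries, coloured by family. Slc3a2 at 47.2 and Slc38a2 at 44.8 CPM per kb lead, and Slc1a1 at 0.0971 CPM per kb is lowest.

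Nearly nothing was read from the 11 genes that were not tested. Slc1a7 and Slc7a12 had no count in any library. Slc1a2, Slc36a2, Slc36a3, Slc38a11, Slc7a9, Slc7a10, Slc7a13, Slc7a14 and Slc7a15 had 4 to 46 counts over all 18 libraries together and at most 9 in one library. Slc7a9 is the usual partner of Slc3a1, the other heavy chain. Slc3a1 itself had 140 counts in all, and 26.5% of its exon length overlaps exons of Prepl on the opposite strand. For Slc1a1, with 279 counts, 31.9% of the exon length overlaps 4430402I18Rik on the opposite strand, which had 635 counts. For Slc7a7, with 3037 counts, 7.0% overlaps Oxa1l on the opposite strand, which had 32400 counts. The use of strand in counting is not stated in the sources used here, so reads of such pairs cannot be told apart.

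With FSH21 at 10 ng/ml, 5 transporters rose and 1 fell against untreated follicles. The rises were in carriers of neutral amino acids, Slc43a2, Slc1a4, Slc7a5 and Slc7a8, and in the orphan family member Slc7a4, and the fall was in the glutamine carrier Slc38a3. In bulk libraries fewer cells of a type and less RNA per cell cannot be told apart. That is 6 of 31 tested transporters at an adjusted p under 0.05, where 10.2% of all 18727 genes tested were called, 5.96% higher and 4.21% lower (edgeR's quasi-likelihood test, Benjamini-Hochberg adjustment over all genes, used for every adjusted p that follows unless another is named). The balance of the calls depended on the scaling and the tool, since RLE size factors and upper-quartile scaling each gave 4 higher and 3 lower, without Slc7a4 and with Slc1a6 and Slc38a7 lower (10.3% and 10.6% of all genes called). DESeq2 gave 5 higher and 4 lower, with Slc1a6, Slc38a5 and Slc38a7 added (12.1% of all genes called). The median log2 fold change was −0.01 over the 31 transporters and 0 over all genes. The CPM of treated and untreated libraries did not overlap for 12 of the 31, 7 higher and 5 lower with FSH21, where 27.7% of all genes tested did not overlap, 15.7% higher and 12% lower.

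With FSH24 at 10 ng/ml, 3 transporters were called, and Slc43a2 and Slc1a4 rose and Slc38a3 fell. Among all genes tested, 8.42% were called in this comparison, 5.12% higher and 3.3% lower. The median log2 fold change was 0 over the 31 transporters and 0 over all genes. The groups did not overlap for 5 transporters, 4 higher and 1 lower with FSH24, beside 24.5% of all genes tested, 13.8% higher and 10.7% lower. An edgeR fit with the library number as a block called 8 of the 31, and 2547 of all 18727 genes tested. It added Slc7a4, Slc7a5 and Slc7a8 on the higher side. On the lower side it added Slc38a5 (adjusted p = 0.0444) and Slc7a2 (adjusted p = 0.0252). The comparisons of FSH21 and FSH24 at 10 ng/ml share their untreated libraries, so the values of each are given side by side and are not independent.

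**Figure D2:**
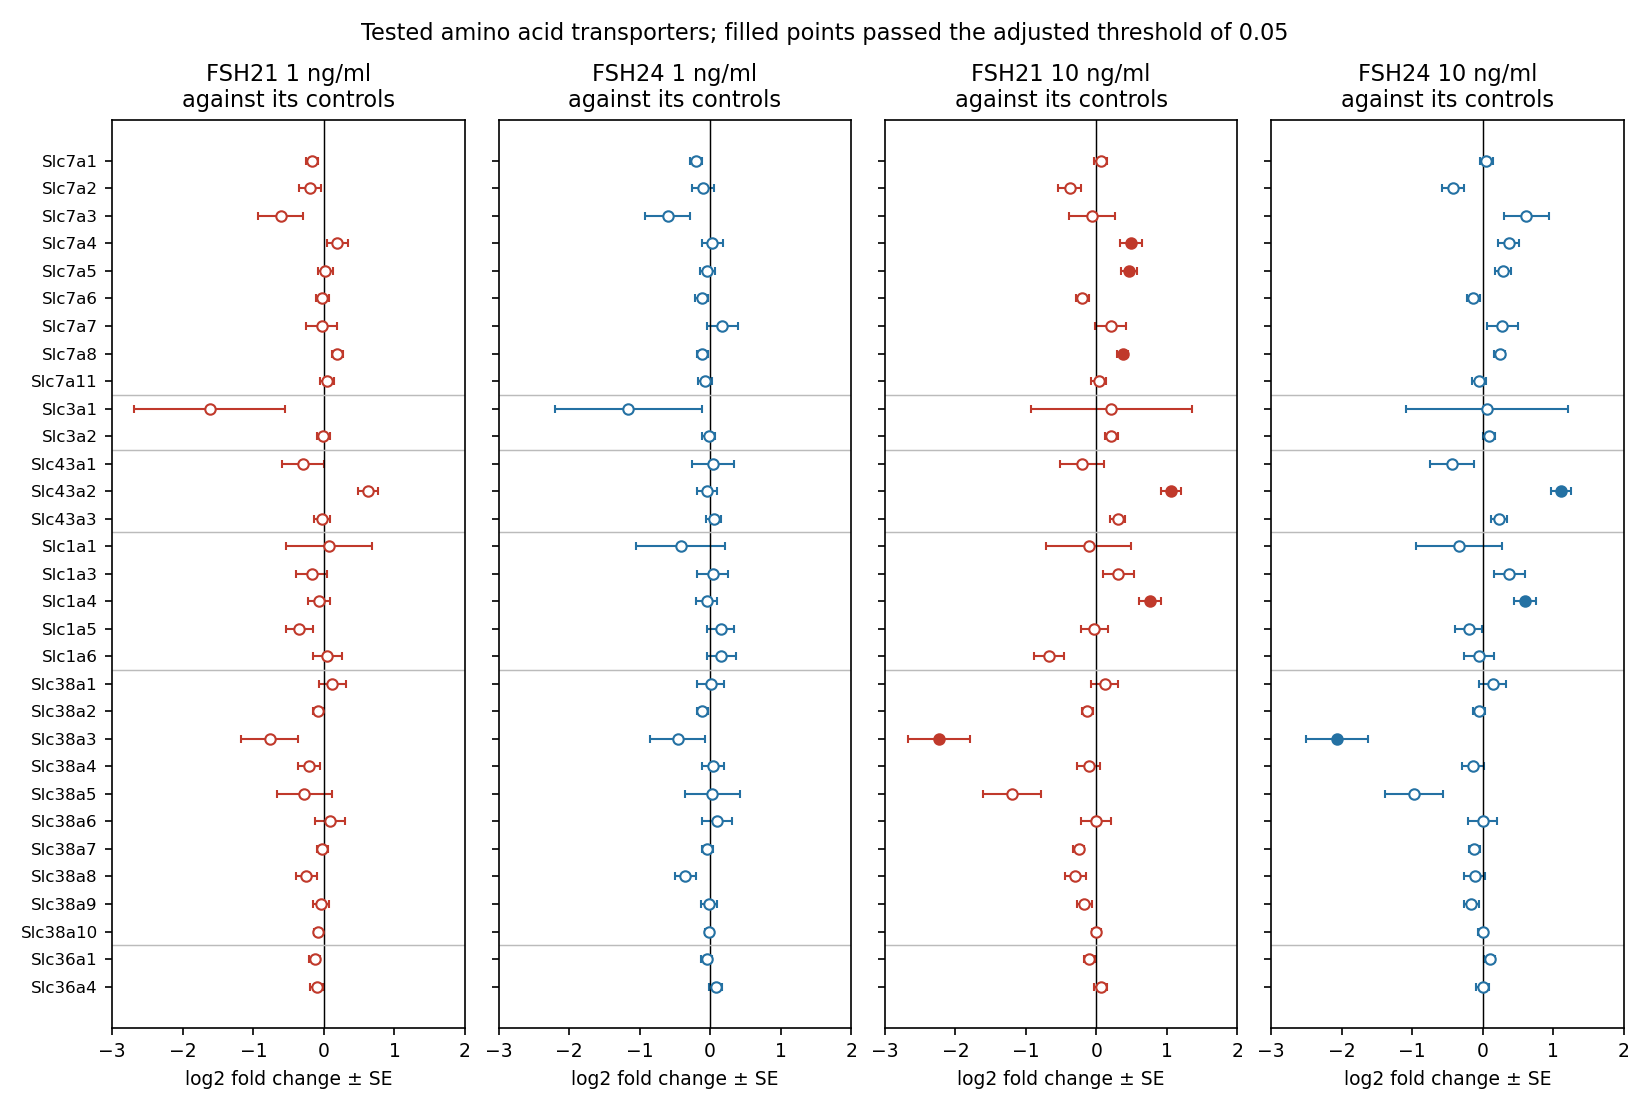
Log2 fold change of the 31 tested transporters against the untreated libraries of the same numbers, with 1 panel per FSH group bars of 1 standard error, rows grouped by family and filled points for an adjusted p under 0.05. Filled points lie in the 10 ng/ml panels, 6 for FSH21 and 3 for FSH24, and none lie in the 1 ng/ml panels.

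Slc43a2, the LAT4 carrier (chromosome 11, 75531694 to 75577575, plus strand, GRCm38), showed the largest rise of the set at 10 ng/ml. It had 24.5, 17.8 and 19.2 CPM with FSH21, 22.0, 18.4 and 23.1 CPM with FSH24 and 11.7, 8.98 and 8.86 CPM in untreated follicles, in the order of numbers 2, 3 and 4. Each of the 6 treated libraries lay above all 3 untreated ones. The log2 fold change was 1.06 (SE 0.14, adjusted p = 7.18e-05) for FSH21 and 1.11 (SE 0.14, adjusted p = 7.68e-05) for FSH24, or 2.08-fold and 2.16-fold. Of its exon length, 9.18% overlaps the opposite-strand gene Gm45606, which had 204 counts in all libraries beside 5815 for Slc43a2.

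RefSeq lists a pair of start sites for Slc43a2, and both promoter windows are shown because this gene had the largest rise. A window runs from 250 bases before to 50 bases after a start site, on GRCm38.p6, written 5′ to 3′ on the gene's own strand. Capitals in this and the next windows mark matches, on either strand, to TGACGTCA (the full cyclic AMP response element), TGACG (its core, found also inside the full element), TGATGNAA (the core of the amino acid response element), CACGTG (the E-box) and TGTTTAC (the FOXO site). Neither Slc43a2 window holds a match to these letters. The first lies at chr11:75531444-75531743 and the second at chr11:75531862-75532161, both on the plus strand.
Slc43a2 first start: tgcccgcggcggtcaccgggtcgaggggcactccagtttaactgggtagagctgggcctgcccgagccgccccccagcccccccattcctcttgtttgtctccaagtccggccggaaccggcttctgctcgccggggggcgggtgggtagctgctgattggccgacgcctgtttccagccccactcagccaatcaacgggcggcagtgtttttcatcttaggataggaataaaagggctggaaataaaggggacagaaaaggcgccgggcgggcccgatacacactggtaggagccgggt
Slc43a2 second start: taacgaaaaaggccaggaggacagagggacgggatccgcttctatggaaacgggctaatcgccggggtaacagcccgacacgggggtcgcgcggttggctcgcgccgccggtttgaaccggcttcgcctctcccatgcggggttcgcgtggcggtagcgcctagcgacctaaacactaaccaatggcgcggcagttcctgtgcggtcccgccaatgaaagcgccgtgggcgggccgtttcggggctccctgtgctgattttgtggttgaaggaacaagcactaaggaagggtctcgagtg

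The light chains Slc7a5 and Slc7a8 rose with FSH21, by less than Slc43a2. Slc7a5, LAT1, the main leucine exchanger of dividing cells (chromosome 8, 121881150 to 121907694, minus strand), had 198, 163 and 162 CPM with FSH21, 161, 159 and 147 CPM with FSH24 and 151, 115 and 116 CPM in untreated follicles. All FSH21 libraries lay above the untreated ones, and FSH24 overlapped them through number 4, at 147 CPM, and the untreated number 2, at 151 CPM. In log2 terms the change was 0.46 (SE 0.11, adjusted p = 0.0106) with FSH21 and 0.29 (SE 0.11, adjusted p = 0.118) with FSH24. Without FSH21 number 2, or without the untreated number 3 or 4, the adjusted p with FSH21 was 0.0916, 0.0772 and 0.0865, in that order. Slc7a5 was called with FSH24 in an edgeR fit with the library number as a block (adjusted p = 0.00301). That fit called 2547 of all genes tested.

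Slc7a8, LAT2, which exchanges neutral amino acids of all sizes (chromosome 14, 54722209 to 54781946, minus strand), had 230, 247 and 223 CPM with FSH21, 206, 217 and 214 CPM with FSH24 and 190, 175 and 175 CPM in untreated follicles. No treated library reached down to the untreated range. The log2 fold change was 0.37 (SE 0.08, adjusted p = 0.00306) with FSH21, and 0.24 (SE 0.08, adjusted p = 0.0631) with FSH24. With FSH24, Slc7a8 was called by DESeq2 (adjusted p = 0.0447) and by the fit with the number as a block (adjusted p = 0.00613). Its RefSeq promoter window at chr14:54781837-54782136 held none of the motif letters.

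The heavy chain that carries these light chains moved little. Slc3a2 had 200, 188 and 185 CPM with FSH21, 176, 186 and 165 CPM with FSH24 and 182, 148 and 164 CPM in untreated follicles. The FSH21 libraries were all above the untreated ones by a small margin, and the FSH24 libraries overlapped them. The estimated log2 fold change was 0.21 (95% interval 0.03 to 0.40, adjusted p = 0.143) with FSH21 and 0.09 (95% interval −0.09 to 0.28, adjusted p = 0.624) with FSH24. Slc3a1, the other heavy chain, was between 0 and 0.821 CPM in all 18 libraries, and its estimates were wide, at 0.21 (SE 1.14) with FSH21 and 0.06 (SE 1.15) with FSH24.

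Slc7a4, a member of the cationic amino acid transporter branch whose transport activity is not established (chromosome 16, 17572018 to 17583214, minus strand), stood at the edge of the threshold. It had 24.6, 20.2 and 24.9 CPM with FSH21, 17.9, 22.1 and 24.3 CPM with FSH24 and 16.7, 14.8 and 18.1 CPM in untreated follicles. FSH21 libraries did not overlap the untreated ones and FSH24 libraries did. The log2 fold change was 0.49 (SE 0.15, adjusted p = 0.0472) with FSH21 and 0.37 (SE 0.15, adjusted p = 0.155) with FSH24. The call with FSH21 was lost without FSH21 number 2 or 4 and without any 1 of the 3 untreated libraries (adjusted p between 0.0812 and 0.193). With FSH24 the fit with the number as a block called Slc7a4 (adjusted p = 0.0235). Of its exon length, 13.3% overlaps P2rx6 on the opposite strand, which had 1256 counts beside 7330 for Slc7a4.

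The other Slc7 and Slc43 genes did not pass the test at 10 ng/ml. Slc7a1, Slc7a6 and Slc7a11, which is the cystine-glutamate exchanger xCT, had log2 fold changes of 0.06, −0.20 and 0.03 with FSH21 and 0.05, −0.13 and −0.05 with FSH24. Slc7a11 was at 55.1, 45.0 and 51.4 CPM with FSH21, 53.7, 43 and 46.6 CPM with FSH24 and 51.9, 49.6 and 46.4 CPM in untreated follicles, so all 3 groups overlapped. Slc43a1, the carrier LAT3, was at −0.20 and −0.43 with FSH21 and FSH24, with standard errors of 0.31 each. The low-level cationic carrier Slc7a3 (CAT3) was at −0.06 and 0.62, with standard errors of 0.33 and 0.32, and Slc7a7, the y+LAT1 light chain, at 0.20 and 0.28, with standard errors of 0.22 each. Slc43a3, known as a carrier of purine nucleobases rather than of amino acids, was higher without overlap in both FSH groups, at 38.7, 35.9 and 40.9 CPM with FSH21, 34.5, 34.3 and 41.6 CPM with FSH24 and 30.7, 32.1 and 31.2 CPM in untreated follicles. Its log2 fold change of 0.30 with FSH21 and 0.23 with FSH24 missed the threshold (adjusted p = 0.0877 and 0.216).

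Slc1a4, the exchanger ASCT1 for alanine, serine, cysteine and threonine (chromosome 11, 20302180 to 20332713, minus strand), rose with both forms. It had 24.9, 31.1 and 26.7 CPM with FSH21, 23.3, 29.2 and 21.3 CPM with FSH24 and 19.2, 15 and 14.6 CPM in untreated follicles. All treated libraries exceeded the highest untreated one, and number 3 was highest in both FSH groups. This gave a log2 fold change of 0.76 (SE 0.15, adjusted p = 0.00199) with FSH21 and 0.60 (SE 0.15, adjusted p = 0.0143) with FSH24. With FSH24 the call was lost without FSH24 number 3 (adjusted p = 0.0817), untreated number 3 (adjusted p = 0.0735) or untreated number 4 (adjusted p = 0.101).

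Of the called genes with a RefSeq window, Slc1a4 was the one that held motif letters, and its window is shown for that. The window at chr11:20332664-20332963 on the minus strand has TGATGNAA on the opposite strand, read as TTGCATCA, beginning 4 bases before the start site, and TGACG on the opposite strand, read as CGTCA, beginning 134 bases before it. For comparison, Slc7a11, whose transcript did not pass the test, has TGATGNAA on both strands, at 66 and 47 bases before its start, and TGTTTAC at 232 bases before it, in the window at chr3:50443564-50443863 on the minus strand.
Slc1a4: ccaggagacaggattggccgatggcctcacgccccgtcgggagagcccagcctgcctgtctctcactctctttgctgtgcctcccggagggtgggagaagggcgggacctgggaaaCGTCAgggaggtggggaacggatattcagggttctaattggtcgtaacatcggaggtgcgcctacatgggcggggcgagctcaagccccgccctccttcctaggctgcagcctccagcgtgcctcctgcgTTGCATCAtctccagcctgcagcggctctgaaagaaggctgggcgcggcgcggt
Slc7a11: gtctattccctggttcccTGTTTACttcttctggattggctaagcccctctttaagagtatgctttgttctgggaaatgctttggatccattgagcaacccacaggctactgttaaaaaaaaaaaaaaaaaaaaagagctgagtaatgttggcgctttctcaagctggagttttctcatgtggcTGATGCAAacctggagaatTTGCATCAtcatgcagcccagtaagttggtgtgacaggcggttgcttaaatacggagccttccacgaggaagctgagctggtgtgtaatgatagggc

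Among all 32851 RefSeq windows of this length, 3.97% hold TGATGNAA, 20.8% TGACG, 1.79% TGACGTCA, 7.15% CACGTG and 3.65% TGTTTAC. The set had 42 windows for 31 of its 42 genes. TGATGNAA was in 4 of these windows, from Slc7a11, Slc1a4 and Slc7a7, TGACG in 10, TGACGTCA in 1, CACGTG in 7 and TGTTTAC in 2. A match describes letters in a window and says nothing of binding.

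The remaining Slc1 genes carry glutamate or, for Slc1a5 (ASCT2), glutamine. Slc1a6, the glutamate transporter EAAT4, had 5.08, 5.65 and 6.70 CPM with FSH21, 6.27, 9.95 and 10.6 CPM with FSH24 and 7.11, 11.8 and 8.95 CPM in untreated follicles. FSH21 libraries all lay below the untreated ones, and FSH24 libraries overlapped them. The log2 fold change was −0.67 (SE 0.21, adjusted p = 0.0503) with FSH21 and −0.05 (SE 0.21, adjusted p = 0.935) with FSH24. Slc1a5, Slc1a3 (EAAT1) and Slc1a1 had log2 fold changes of −0.03, 0.31 and −0.11 with FSH21 and −0.20, 0.38 and −0.33 with FSH24, and their libraries overlapped the untreated ones.

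Slc38a3, the system N glutamine transporter SNAT3 (chromosome 9, 107650634 to 107669530, minus strand), fell most. It had 3.52, 2.80 and 4.88 CPM with FSH21 at 10 ng/ml, 3.18, 5.45 and 3.90 CPM with FSH24 and 20.9, 16.2 and 15.5 CPM in untreated follicles. The highest treated library, at 5.45 CPM, was far below the lowest untreated one, at 15.5 CPM. The fitted log2 fold change was −2.23 (SE 0.44, adjusted p = 0.00494) with FSH21 and −2.07 (SE 0.44, adjusted p = 0.00887) with FSH24, or 0.213 and 0.238 of the untreated level. Without FSH24 number 2 the second call was lost, at a log2 fold change of −1.92 (adjusted p = 0.0517).

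**Figure D3:**
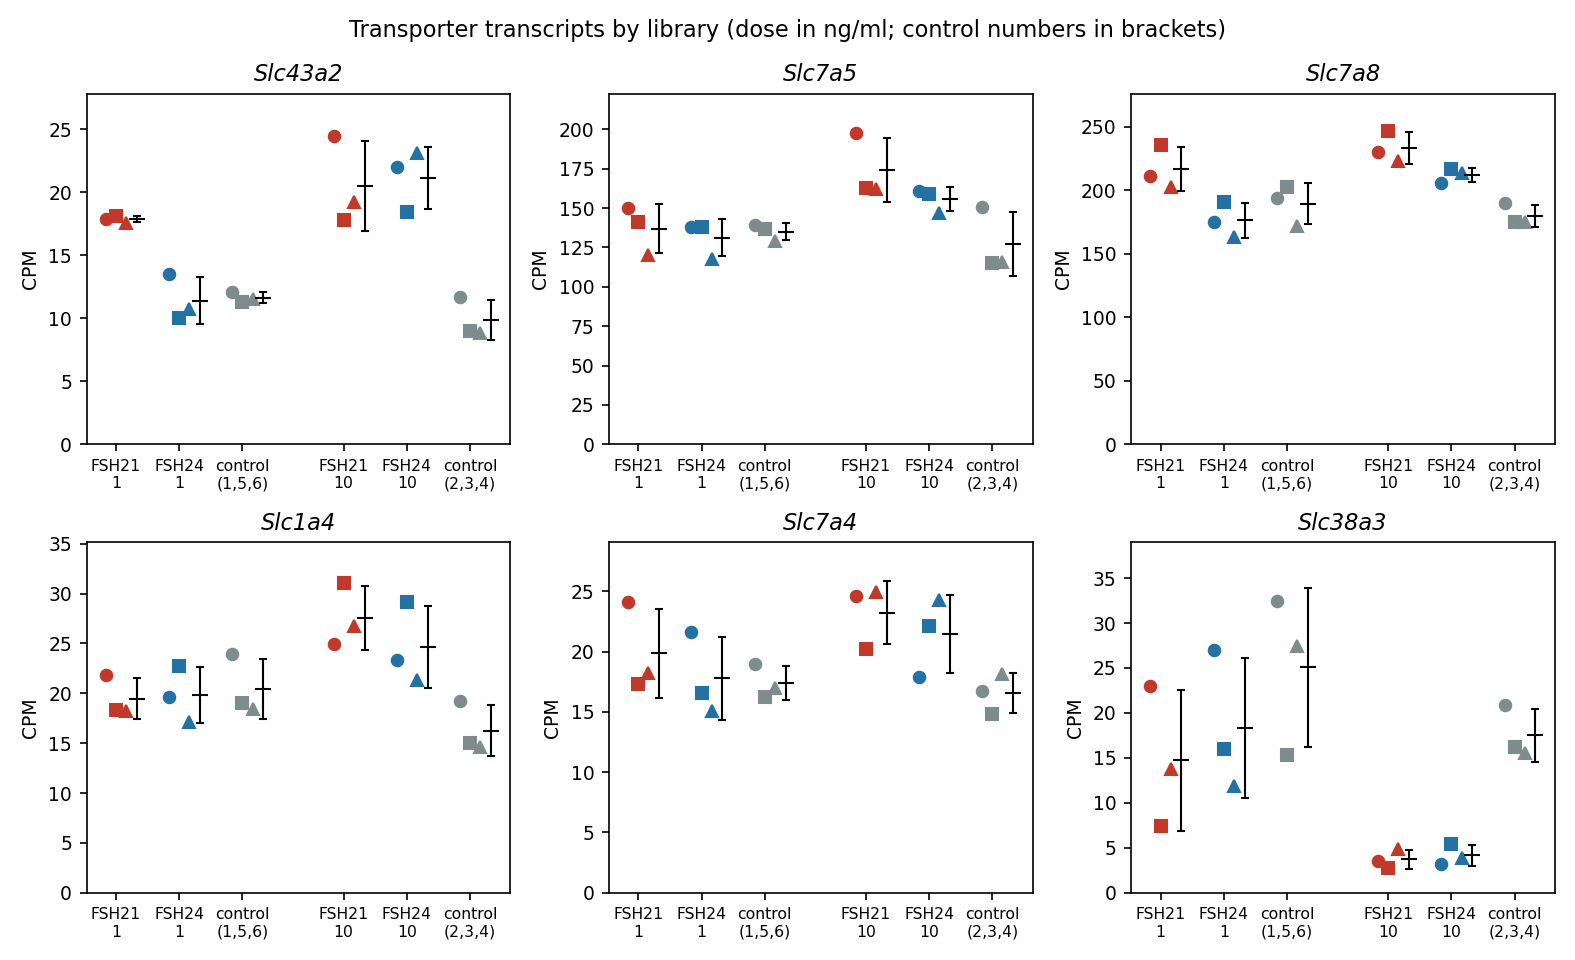
CPM of the 6 called transporters in each library of the 6 groups, with the FSH groups left of the untreated libraries of the same numbers; circles, squares and triangles are numbers 1, 5 and 6 on the left and 2, 3 and 4 on the right of each panel, and black bars are mean ± SD (n = 3). Slc43a2, Slc7a8, Slc1a4 and Slc38a3 separate both 10 ng/ml groups from their controls, with Slc38a3 at 5.45 CPM or below in the libraries treated at 10 ng/ml.

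Slc38a5, SNAT5, the other system N carrier of the set, pointed the same way with more spread. It had 5.02, 4.82 and 4.79 CPM with FSH21, 4.23, 7.73 and 5.22 CPM with FSH24 and 16.3, 7.47 and 9.77 CPM in untreated follicles. The FSH21 libraries lay close together and below all untreated ones, while FSH24 number 3 overlapped untreated number 3. The log2 fold change was −1.20 (SE 0.41, adjusted p = 0.0896) with FSH21 and −0.97 (SE 0.41, adjusted p = 0.188) with FSH24. Among the system A carriers, which bring in small neutral amino acids with sodium, the abundant Slc38a2 moved little. Slc38a2 was at 343, 363 and 332 CPM with FSH21, 342, 345 and 411 CPM with FSH24 and 374, 393 and 369 CPM in untreated follicles, so FSH21 was lower without overlap by a log2 fold change of −0.13 (95% interval −0.30 to 0.04, adjusted p = 0.398) and FSH24 overlapped, at −0.05 (95% interval −0.22 to 0.12, adjusted p = 0.814). Slc38a1, SNAT1, was at 0.12 (95% interval −0.29 to 0.53) for FSH21 and 0.14 (95% interval −0.27 to 0.55) for FSH24, with standard errors of 0.19 each. Slc38a4, the system A carrier SNAT4, Slc38a6 and Slc38a8 had log2 fold changes of −0.11, −0.01 and −0.30 with FSH21 and −0.14, 0 and −0.11 with FSH24, none of which passed the test.

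Among the lysosomal members, Slc38a7 was lower with FSH21 by a small margin, and the others overlapped their untreated libraries. Slc38a7 had 35.1, 32.7 and 32.5 CPM with FSH21, 33.9, 34.8 and 41.0 CPM with FSH24 and 41.2, 40.2 and 37.5 CPM in untreated follicles. FSH21 libraries lay below the untreated ones at a log2 fold change of −0.25 (SE 0.08, adjusted p = 0.056), and FSH24 libraries overlapped them at −0.12 (SE 0.08, adjusted p = 0.465). Slc38a9, the arginine sensor that signals to the growth kinase complex mTORC1, was at −0.17 and −0.16. The Slc36 carriers Slc36a1 and Slc36a4 lay between −0.10 and 0.10 in both comparisons. Slc38a10, among the most abundant genes of the set, had a log2 fold change of 0 in both, with 95% intervals of −0.12 to 0.12 for FSH21 and −0.11 to 0.12 for FSH24.

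FSH21 at 10 ng/ml and its untreated libraries share their numbers, as do the groups of every other comparison with controls. A fit with the number as a block called 12 of the 31 transporters for FSH21 at 10 ng/ml, where it called 15.1% of all genes. The 6 genes above were called in it too. The 6 added genes were Slc3a2 (log2 fold change 0.22, adjusted p = 0.0367) and Slc43a3 (0.30, adjusted p = 0.0225) on the higher side, and Slc38a5 (−1.17, adjusted p = 0.014), Slc1a6 (−0.66, adjusted p = 0.0036), Slc38a7 (−0.25, adjusted p = 0.0468) and Slc7a2 (−0.36, adjusted p = 0.0444) on the lower side. Slc7a2, the cationic amino acid transporter CAT2, had 16.1, 18.5 and 16.6 CPM with FSH21, 13.4, 17.1 and 19.4 CPM with FSH24 and 16.5, 26.2 and 23.9 CPM in untreated follicles, so the groups overlapped although each FSH21 library was below the untreated one of its number.

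**Figure D4:**
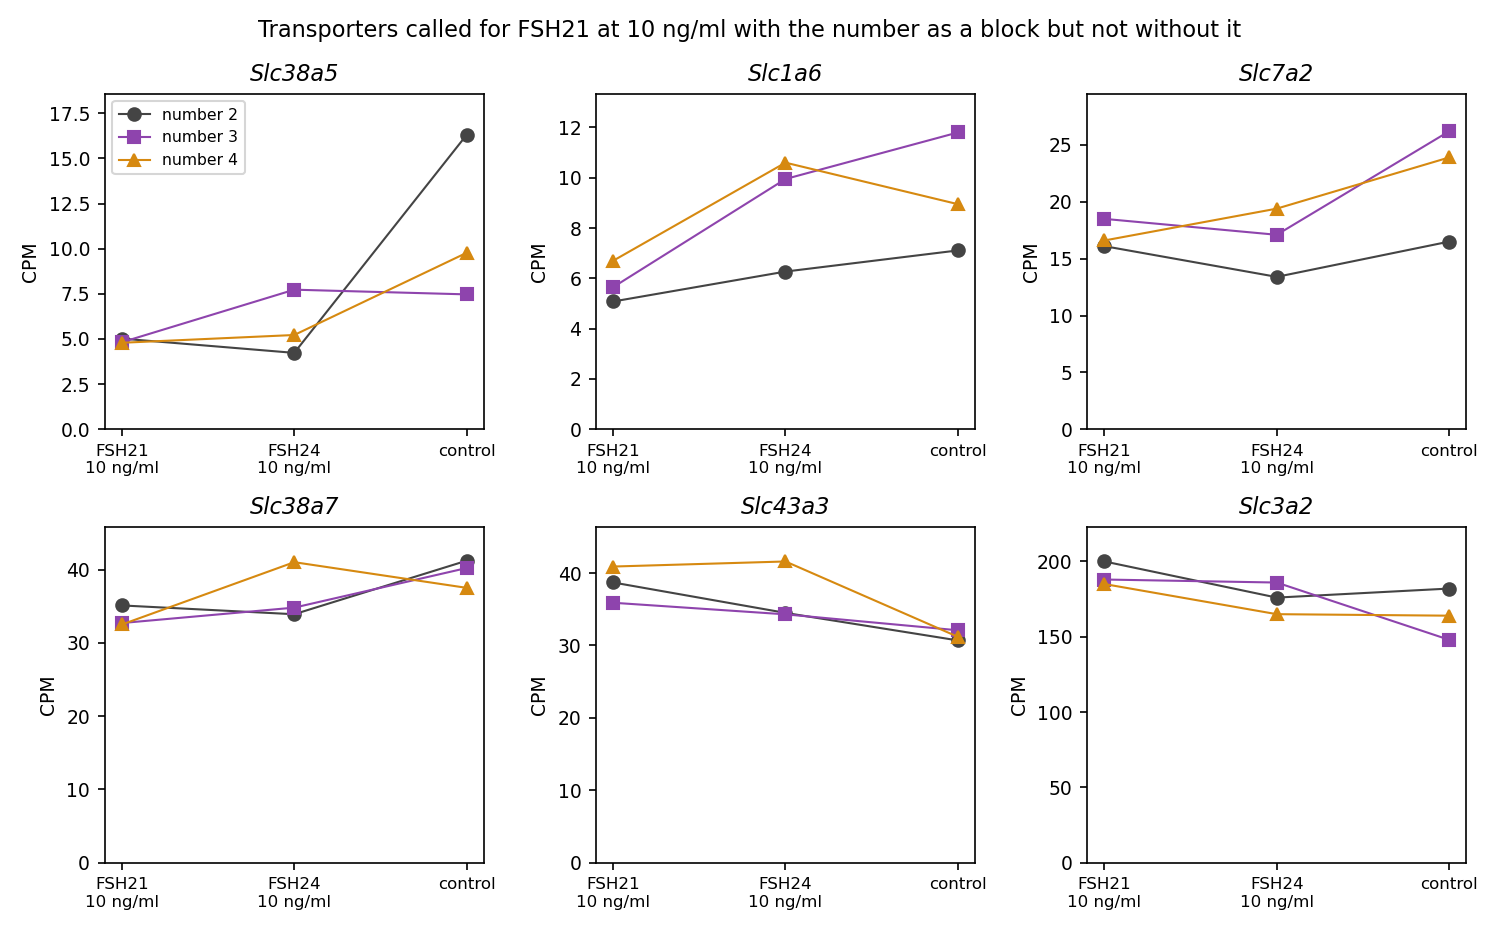
CPM of the 6 transporters called for FSH21 at 10 ng/ml with the number as a block and not called without it, in FSH21, FSH24 and untreated libraries, with lines joining libraries of the same number. In all 3 numbers FSH21 lies below the untreated library for Slc38a5, Slc1a6, Slc7a2 and Slc38a7 and above it for Slc43a3 and Slc3a2.

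At 10 ng/ml some markers of the cell types were called too. The 15 oocyte genes summed to 5510 to 6200 CPM with FSH21 and 5500 to 5920 CPM with FSH24, below the 6300 to 6600 CPM of the untreated libraries of the same numbers. The other 3 untreated libraries, numbered 1, 5 and 6, were at 5160 to 6100 CPM and overlapped the treated ones. Against the untreated libraries of the same numbers 0 and 1 of the 15 were called with FSH21 and FSH24 (Khdc3, lower with FSH24). For the 0 with FSH21, 3 of the 15 had an unadjusted p under 0.05. The 13 granulosa genes summed to 8860 to 10000 CPM with FSH21, 8320 to 9550 CPM with FSH24, 7490 to 9130 CPM in the untreated libraries of the same numbers and 8010 to 9340 CPM in the other untreated libraries, with 5 higher and 1 lower called for FSH21 and 4 higher and 1 lower for FSH24, where 10.2% and 8.42% of all genes were called. Of the 8 theca and steroidogenic genes 2 rose in both comparisons, and no stroma, endothelial or immune marker was called in either. Only 7 of the 9 endothelial and 2 of the 9 immune genes had enough counts to be tested. In each comparison 1 of those 2 immune genes had an unadjusted p under 0.05 in the edgeR test. The part of these cell types in the transporter results was not tested.

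At 1 ng/ml no transporter was called in the main edgeR test. With FSH21 at 1 ng/ml, 0.128% of all genes were called, 2 of the 31 transporters had an unadjusted p under 0.05 and 1 was called by DESeq2, which called 0.534% of all genes. With FSH24 at 1 ng/ml, 0% of all genes were called, 1119 genes had an unadjusted p under 0.05, DESeq2 called 1 gene (0.00534%) and no transporter, and 2 transporters had an unadjusted p under 0.05. The median log2 fold changes were −0.07 and −0.04 over the transporters, and 0.004 and 0.002 over all genes. The FSH21 and untreated libraries did not overlap for 7 transporters, 2 higher and 5 lower, beside 13% of all genes, 6.75% higher and 6.23% lower. The FSH24 and untreated libraries did not overlap for 2 transporters, Slc38a8 and Slc7a1, both lower, beside 10.3% of all genes, and 5.02% on the lower side.

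The transporter that DESeq2 called at 1 ng/ml was Slc43a2. It had 17.9, 18.1 and 17.6 CPM with FSH21 at 1 ng/ml, 13.5, 10.0 and 10.7 CPM with FSH24 at 1 ng/ml and 12.1, 11.3 and 11.5 CPM in untreated follicles, in the order of numbers 1, 5 and 6. FSH21 libraries agreed closely and lay above the other groups, which overlapped each other. On the log2 scale the fold change was 0.62 (SE 0.14, adjusted p = 0.13; DESeq2 adjusted p = 0.0197) with FSH21 and −0.04 (SE 0.14, adjusted p = 0.983) with FSH24. With FSH21, Slc43a2 was also called by edgeR with the number as a block (adjusted p = 0.00894) and with no low-count filter (adjusted p = 0.0208). These fits called 226 of 18727 and 59 of 36282 genes. Slc7a8 was also higher without overlap with FSH21, at 211, 236 and 203 CPM with FSH21, 175, 191 and 163 CPM with FSH24 and 194, 203 and 172 CPM in untreated follicles. One FSH21 library equalled the highest untreated value to the digits given, and the log2 fold change was 0.19 (SE 0.08, adjusted p = 0.552). The remaining genes called at 10 ng/ml were near 0 or widely spread, Slc1a4 at −0.07 and −0.05, Slc7a5 at 0.02 and −0.04 and Slc7a4 at 0.19 and 0.03 with FSH21 and FSH24. Slc38a3 was at 23.0, 7.38 and 13.8 CPM with FSH21, 27.0, 16 and 11.9 CPM with FSH24 and 32.5, 15.3 and 27.4 CPM in untreated follicles, with log2 fold changes of −0.77 (SE 0.40, adjusted p = 0.755) and −0.46 (SE 0.39, adjusted p = 0.9).

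The effect of FSH24 on Slc43a2 differed between doses. Its log2 fold change at 10 ng/ml was higher than at 1 ng/ml by 1.14 (SE 0.20, adjusted p = 0.0054), where 2.45% of all genes were called for such a difference, and it was the 1 transporter called. For FSH21 the difference was 0.44 (95% interval 0.02 to 0.86, adjusted p = 0.674) and no transporter was called beside 0.272% of all genes, with 6 of 31 at an unadjusted p under 0.05 and 1, Slc1a4, called by DESeq2 (log2 difference 0.83, adjusted p = 0.0301) beside 0.796% of all genes. In the edgeR test Slc1a4 had a difference of 0.84 for FSH21 and 0.65 for FSH24, each with an adjusted p of 0.126. An edgeR fit with the number as a block called Slc1a4 for both forms (adjusted p = 0.0261 and 0.0431). It also called Slc7a5 for both (adjusted p = 0.0161 and 0.0262) and Slc7a8 for FSH24 (adjusted p = 0.0118). That fit called 229 and 1180 of all genes tested for FSH21 and FSH24.

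FSH21 and FSH24 were not told apart for any transporter by the main edgeR test, which has no block. At 1 ng/ml 0.0107% of all genes were called, 3 of the 31 transporters had an unadjusted p under 0.05, and DESeq2 called Slc43a2 and Slc7a8 beside 0.796% of all genes. So did an edgeR fit with the number as a block (adjusted p = 0.00943 and 0.0128), which called 177 of 18727 genes. The edgeR fit with no low-count filter called Slc43a2 (adjusted p = 0.0167) and 65 of 36282 genes. Slc43a2 was higher with FSH21 by 0.65 (95% interval 0.36 to 0.95, adjusted p = 0.173) and Slc7a8 by 0.30 (95% interval 0.14 to 0.46, adjusted p = 0.185), and both were without overlap between the forms, among 7 such transporters beside 14.9% of all genes. The third gene by unadjusted p was Slc1a5, lower with FSH21 by −0.50 (95% interval −0.89 to −0.10, adjusted p = 0.409).

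At 10 ng/ml 0% of all genes were called between the forms. There were 410 genes with an unadjusted p under 0.05, and DESeq2 called 5 genes (0.0267%) and no transporter. The forms did not overlap for 4 transporters, with Slc7a5 and Slc7a8 higher and Slc36a1 and Slc7a3 lower in FSH21 libraries, beside 7.09% of all genes. Differences of FSH21 from FSH24 had 95% intervals of −0.34 to 0.24 for Slc43a2, −0.14 to 0.47 for Slc1a4, −0.06 to 0.39 for Slc7a5, −0.02 to 0.30 for Slc7a8, −0.20 to 0.43 for Slc7a4 and −1.18 to 0.87 for Slc38a3, all with an adjusted p of 1. Slc1a6, at −0.62 (95% interval −1.07 to −0.17), and Slc36a1, at −0.19 (95% interval −0.36 to −0.03), were the 2 transporters with an unadjusted p under 0.05.

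Some genes of amino acid sensing and use passed the test at 10 ng/ml. Of 27 genes of the amino acid response, which the factor ATF4 switches on when amino acids run short, 5 rose and 0 fell with FSH21 at 10 ng/ml, and 3 rose and 0 fell with FSH24. Over all genes tested, 5.96% were called higher and 4.21% lower with FSH21, and 5.12% higher and 3.3% lower with FSH24. The list's median log2 fold change was 0.23 and 0.11, beside 0 over all genes. Ddit4, an inhibitor of mTORC1 signalling, averaged 135 ± 15 CPM with FSH21, 105 ± 18.7 CPM with FSH24 and 64.2 ± 3.00 CPM in untreated follicles (SD, n = 3 each; adjusted p = 0.000103 and 0.00378). Trib3, a pseudokinase that holds ATF4 in check, was at 7.01 ± 1.24 CPM with FSH21 and 3.08 ± 0.575 CPM in untreated follicles (SD, n = 3 each; adjusted p = 0.00736). Sesn2, a leucine sensor, was at 43.9 ± 2.64 CPM with FSH21, 40.3 ± 1.35 CPM with FSH24 and 27.4 ± 0.646 CPM in untreated follicles (SD, n = 3 each; adjusted p = 0.000103 and 0.000935). Atf5 rose in both and Ppp1r15a with FSH21. Atf4 itself (log2 fold change 0.32, adjusted p = 0.17 with FSH21; 0.13, adjusted p = 0.679 with FSH24) and Asns, the asparagine synthetase (0.21, adjusted p = 0.617; 0.16, adjusted p = 0.749), did not pass the test.

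Of 30 genes by which mTORC1 senses amino acids, 1 rose and 2 fell with FSH21 at 10 ng/ml, and 1 rose and 1 fell with FSH24. These counts are near the shares of all genes called, 10.2% with FSH21 and 8.42% with FSH24. Sesn2 and Ddit4, described above, were counted in the amino acid response list and not in this one. Sesn3, a sestrin, rose to 190 ± 7.13 CPM with FSH21 and 187 ± 24.2 CPM with FSH24, against 119 ± 20.1 CPM in untreated follicles (SD, n = 3 each; adjusted p = 0.000377 and 0.000728). Wdr59, a subunit of the GATOR2 complex, fell to 99.5 ± 12.9 and 105 ± 12.5 CPM, against 163 ± 15.5 CPM (SD, n = 3 each; adjusted p = 0.000696 and 0.00218). Flcn, folliculin, fell with FSH21 by 0.37 on the log2 scale (adjusted p = 0.00289).

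Of 17 enzymes of glutamine, glutamate and branched-chain amino acids, 1 rose and 2 fell with FSH21, and 0 rose and 2 fell with FSH24, in comparisons that called 10.2% and 8.42% of all genes. Glul, which makes glutamine, was at 26.0 ± 2.09 CPM with FSH21, 26.4 ± 2.92 CPM with FSH24 and 37.8 ± 7.91 CPM in untreated follicles (SD, n = 3 each; adjusted p = 0.025 and 0.0333). Bckdha, a subunit of the branched-chain ketoacid dehydrogenase, fell by 0.30 and 0.29 on the log2 scale (adjusted p = 0.0103 and 0.0154), and Oat, ornithine aminotransferase, rose with FSH21 (0.21, adjusted p = 0.0259). Of 10 cystine and glutathione enzymes none was called with either form, and 1 and 0 had an unadjusted p under 0.05.

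Of 28 amino acid transporters in other families 21 were tested, and 1 fell with FSH21 and 2 with FSH24 at 10 ng/ml, where 10.2% and 8.42% of all genes were called. Slc6a15, a sodium-coupled carrier of branched-chain amino acids and proline, averaged 17.3 ± 2.26 CPM with FSH21, 19.0 ± 1.21 CPM with FSH24 and 41.0 ± 13.6 CPM in untreated follicles (SD, n = 3 each; log2 fold change −1.25, adjusted p = 0.0227, and −1.11, adjusted p = 0.0439). Slc25a13, a mitochondrial aspartate-glutamate carrier, fell with FSH24 (−0.52, adjusted p = 0.0449). The taurine transporter Slc6a6 (−0.31, adjusted p = 0.0877 with FSH21; −0.23, adjusted p = 0.228 with FSH24) and the glycine transporter Slc6a9, which the mouse oocyte uses to regulate its volume (0.06, adjusted p = 0.668; 0, adjusted p = 0.991), did not pass. No gene of these 5 lists was called at 1 ng/ml in the edgeR test, where 0.128% of all genes were called with FSH21 and 0% with FSH24.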

How the data were processed

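Polyadenylated RNA of mouse early secondary follicles was sequenced in 18 libraries, 3 in each of 6 groups, each run on 4 lanes and deposited as 72 samples. The authors deposited expected counts per gene, 1 column per library with lanes merged, a unit read from the column names and from values of which 33.9% of the non-zero ones are not whole (tolerance 0.001). bcl2fastq, FastQC, the aligner STAR 2.7 and the build mm10 come from the submitters' processing notes, with no role given. Quantifier version, annotation and strand use: not given in the sources used here. The untreated column numbered 4 writes its treatment code differently from its titles and was matched by number and index.

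Counts were rounded to whole numbers. The low-count filter was filterByExpr of edgeR, set to at least 10 counts and told the groups, and left 18727 genes. The main test was the quasi-likelihood test of edgeR 4.0.16 (R 4.3.3) with robust estimation on all 18 libraries as 6 groups, with TMM factors and without a block term, tested on simulated data. A gene was called at a Benjamini-Hochberg adjusted p under 0.05 over all genes tested. The biological coefficient of variation was 0.135. Levels are CPM on TMM-adjusted totals, and intervals of differences use the t quantiles of the fit. Positions and exon lengths are from GENCODE M21 on GRCm38, counted from 1, and promoter windows from RefSeq on GRCm38.p6. Slc38a3, Slc7a4 and Slc7a5 have no window in the table used.

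All transporters called in any of 8 comparisons, Slc3a1, Slc3a2 and the 3 highest per kb were to be described, the others by range and count. Others near the threshold or called under the block were named after their values were seen. The transporters and the lists were chosen with earlier results of these data known. Deviations from group means of same-numbered libraries were correlated at 0.193, 0.206 and 0.126 for FSH21 at 10 ng/ml and its controls. In each other comparison at least 1 of the 3 correlations was under 0.1, so the block was laid out in full only for that comparison. Every number holds an untreated, an FSH21 and an FSH24 library, so this cutoff does not show the others to be unpaired. For those, calls that the block changed are named without a full account. Alternatives were size factors by RLE and upper quartile, other filters, DESeq2 1.42.0, limma-voom (limma 3.58.1), the compared groups alone, the replicate block and each library left out.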

Additional observations from a re-analysis of the deposited data

Results flagged for a closer look

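The effect of FSH24 on Slc43a2 differed between doses. The log2 fold change against untreated libraries of the same numbers was 1.11 at 10 ng/ml and −0.04 at 1 ng/ml, a difference of 1.14 (SE 0.20, 95% interval 0.72 to 1.56, edgeR adjusted p = 0.0054 for the difference itself). FSH24 was higher than the untreated library in 3 of 3 numbers at 10 ng/ml and in 1 of 3 at 1 ng/ml. Apart from leaving out 1 library at a time, groups of 3 libraries were not examined for single libraries that stand apart. The call of the dose difference held in all 20 alternative fits, those included, at log2 differences of 1.04 to 1.27. Dose and number set cannot be told apart.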

How the results depend on the processing

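The 10 calls of a transporter kept their direction in every alternative fit. Each call was set against 14 or 20 alternatives, which gave 146 pairs of a call and a fit. In 130 pairs the call was kept and in 16 it was lost. The pairs are not separate fits, since the same fit counts once for each call it bears on. Calls of Slc43a2 in the 3 comparisons that called it, and of Slc1a4, Slc38a3 and Slc7a8 with FSH21 at 10 ng/ml, held in every alternative. Slc7a4 with FSH21 was also lost with RLE (adjusted p = 0.0518), upper-quartile scaling (adjusted p = 0.063) and limma-voom (adjusted p = 0.0514), and Slc7a5 in the fit of the compared groups alone (adjusted p = 0.0823), and the cause was not tested. For FSH21 at 10 ng/ml other settings gained calls on the lower side: Slc1a6 with RLE, upper-quartile scaling, DESeq2, the filter of 1 CPM in 3 libraries (5 higher and 3 lower) and no low-count filter, Slc38a7 with the first 4 of these, and Slc38a5 with DESeq2 and with the compared groups alone, which also called Slc43a3 higher. With the replicate block the number of transporters called was 12 for FSH21 and 8 for FSH24 at 10 ng/ml (6 and 3 without it), 1 and 0 at 1 ng/ml, 2 and 0 for FSH21 against FSH24 at 1 and 10 ng/ml, and 2 and 4 for the dose difference of FSH21 and FSH24. For FSH24 at 10 ng/ml the block added Slc7a4, Slc7a5 and Slc7a8 on the higher side and Slc38a5 and Slc7a2 on the lower side. Each library correlated best with the one of its own number in all 6 comparisons of group pairs, a hint of pairing from the data. DESeq2 called 1 transporter for FSH21 at 1 ng/ml, 2 for FSH21 against FSH24 at 1 ng/ml and 1 for the dose difference of FSH21, and the fit with no low-count filter called 1 in each of these 3. Leaving out 1 library at a time gave 4 to 7 for FSH21 and 2 to 5 for FSH24 at 10 ng/ml, 1 to 1 for the dose difference of FSH24 and 0 to 0 in the other 5 comparisons. Without untreated number 2 the count for FSH24 at 10 ng/ml was 5, and without FSH24 number 2 or 3 or untreated number 3 or 4 it was 2. Over all genes, leaving out 1 library gave 1250 to 1630 calls for FSH21 (1906 with all) and 982 to 1439 for FSH24 (1577) at 10 ng/ml, fewest without untreated number 4 in both, 0 to 21 for FSH21 (24) and 0 to 1 for FSH24 (0) at 1 ng/ml, 0 to 7 (2) and 0 to 1 (0) for the forms at 1 and 10 ng/ml, and 20 to 66 (51) and 217 to 517 (458) for the dose differences of FSH21 and FSH24. A change over 1.5 times at 10 ng/ml came without untreated number 4 (1250 for FSH21, 982 for FSH24) and, for FSH24, without FSH24 number 2 (1029) or 4 (995), and for FSH21 at 1 ng/ml without FSH21 number 1 (2) or 5 (0) or untreated number 1 (5) or 6 (0). Over all genes the block called 226 for FSH21 and 0 for FSH24 at 1 ng/ml (24 and 0 without it), 2819 and 2547 at 10 ng/ml (1906 and 1577), 177 for FSH21 against FSH24 at 1 ng/ml (2), and 229 and 1180 for the dose differences of FSH21 and FSH24 (51 and 458). DESeq2 called 100, 149, 149 and 740 for FSH21 at 1 ng/ml, the forms at 1 ng/ml and the dose differences of FSH21 and FSH24, and with no filter the first 3 were 59, 65 and 102. With the compared groups alone FSH21 at 1 ng/ml gave 1 and the forms at 1 ng/ml 0. Upper-quartile scaling called 1007 higher and 970 lower with FSH21, and 809 and 724 with FSH24, at 10 ng/ml, against 1117 and 789, and 959 and 618, with TMM. At 3 libraries a group, and below about 1 CPM, as for Slc3a1 and Slc1a1, standard errors of 0.60 or more on the log2 scale leave even large changes undetectable.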
